A study of Drosophila melanogaster with 6 samples.

Results

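Among the protein-coding genes of the fruit fly that still go by a CG number, 29 differed at least 4-fold in mean level between heads of miR-210 mutant flies and heads of w1118 control flies, 18 of them higher and 11 lower in the mutant. They were chosen from the 13541 genes of the authors' deposited table, of which 5490 are protein-coding with a CG number. The larger of both authors' group means had to be at least 50, and the larger mean plus 1 had to be at least 4 times the smaller mean plus 1. Genes on X between 17628219 and 18628318, within 500 kb of mir-210, were left out, as were CG3397 and CG9150. Those 2 genes met the level and the fold, and 0 of the 50 CG-numbered genes in the window did. Because the group means chose the members, the differences given here are descriptions and are not tested. The groups are 3 samples of adult heads with the genotype miR-210 mutant, which the labels also call M22-3, and 3 of w1118, a laboratory strain that carries a mutation of the eye colour gene white. Age, sex, the nature of the mutant allele and whether the mutant flies carry the white mutation as well are not stated in the labels. As each genotype is 1 group, a difference in genetic background between the mutant and w1118 flies cannot be told apart from the loss of miR-210.

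A CG number is the identifier that the genome annotation gives to a predicted fly gene, and a gene keeps it as its working name until someone names it for a function or a mutant. Many such genes belong to families whose chemistry is known from the domains of the protein, such as proteases, sugar transporters or chitin-binding proteins, while the substrate and the tissue role of the single gene are not. microRNAs such as miR-210 pair with messenger RNAs and lower them, so that direct targets can be higher where a microRNA is missing. Whether any member is such a target was not tested. In the current annotation 3 of the 29 have been named, CG11671 as Nazo, CG10407 as Jhbp5 and CG5999 as Ugt37A3. A domain or family was listed in the deposited table for 19 of the 29, and the other 10 (34.5%) had none, against 42.8% of the 3363 CG-numbered genes that passed the same minimum level.

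The deposited table holds group means of normalized counts (read counts divided by a size factor of the library), and the reads of the 6 single libraries were recovered from these means for 97.3% of its genes, the 29 members included. As these libraries cannot be tied to a sample number, they are called the deepest, the middle and the shallowest of their group by size factor, and values are listed in that order, mutant before control. They hold from 6257409 to 9194231 (mutant) and from 8915003 to 16462836 (control) reads in recovered genes, and nothing in the labels says that they came from separate groups of flies. Within each group the deepest library stood apart from the other 2, as chi-square per gene was 64.2 and 104 between it and the others in the mutant and 155 and 129 in the control, where the other pairs gave 18.2 and 16.2. All 10 photoreceptor and all 8 neuronal markers were in the table, with summed authors' means of 402349 and 14840.0 in the mutant and 1154825 and 25032 in the control. By library the neuronal sum was 25419, 10864 and 8237 in the mutant against 43196, 15974 and 15926 in the control. These groups overlapped, and no neuronal marker was called (lowest adjusted p = 0.133, for nSyb, in the authors' deposited table). A highest sum in the deepest library of each group was not particular to neurons. It also held for the recovered markers of muscle (17550, 6962 and 6152 against 19924, 6761 and 8381), glia and fat body. For hemocyte markers the deepest library was not the highest in either group, and for the recovered cuticle markers it was the lowest in both. For the 9 fat body markers the mutant sum was the larger, at 2919771 against 1408691. Most of both sums came from the yolk protein genes Yp1, Yp2 and Yp3, and the sex of the flies is not stated. Lsp2, Lsp1beta, Yp2, Yp3 and FASN1 were called higher in the authors' deposited table. Yp1, apolpp and to had higher means in the mutant and were not called. Fbp1 had a lower mean, 2.98 against 9.17, and was not called either (adjusted p = 0.607 in that table). Of the testis markers 3 of 8, and of the male accessory gland markers 1 of 6, were in the table, with sums of at most 9.74 in either group. Of the ovary markers 5 of 9 were in the table, and their sum was 15.4, 31.5 and 68.4 in the mutant libraries, against 20.3 to 27.9 in the controls. The eggshell gene Cp19 was called higher among them (adjusted p = 0.0125 in the authors' deposited table). Another eggshell gene, Cp18, had a lower mean in the mutant, 5.89 against 19.2, and was not called (adjusted p = 0.308 in that table). Cp15, Vm26Aa and osk had means of at most 1.01 in either group. In bulk heads, fewer cells of a type and less RNA per cell cannot be told apart, and the part of these shifts in the members' values was not tested.

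At an adjusted p under 0.05, the authors' deposited table calls 11 of the 18 higher members and 10 of the 11 lower members, where 2.56% of its 11155 tested genes were called higher and 1.89% lower. As the same contrast chose the members, nothing is read from these counts. The other 7 higher members have no p-value. The 3 mutant libraries lay wholly above the 3 control libraries for 10 of the 18 higher members and wholly below them for 10 of the 11 lower members, and among all 8354 recovered genes at the same level this held for 9.85% and 8.24%. Of the 3363 CG-numbered genes at this level, 0.535% were at least 4-fold higher and 0.327% at least 4-fold lower. For the 5182 other protein-coding genes these shares were 0.367% (19 genes) and 0.482% (25 genes), and the shares were not tested against each other.

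**Figure D1:**
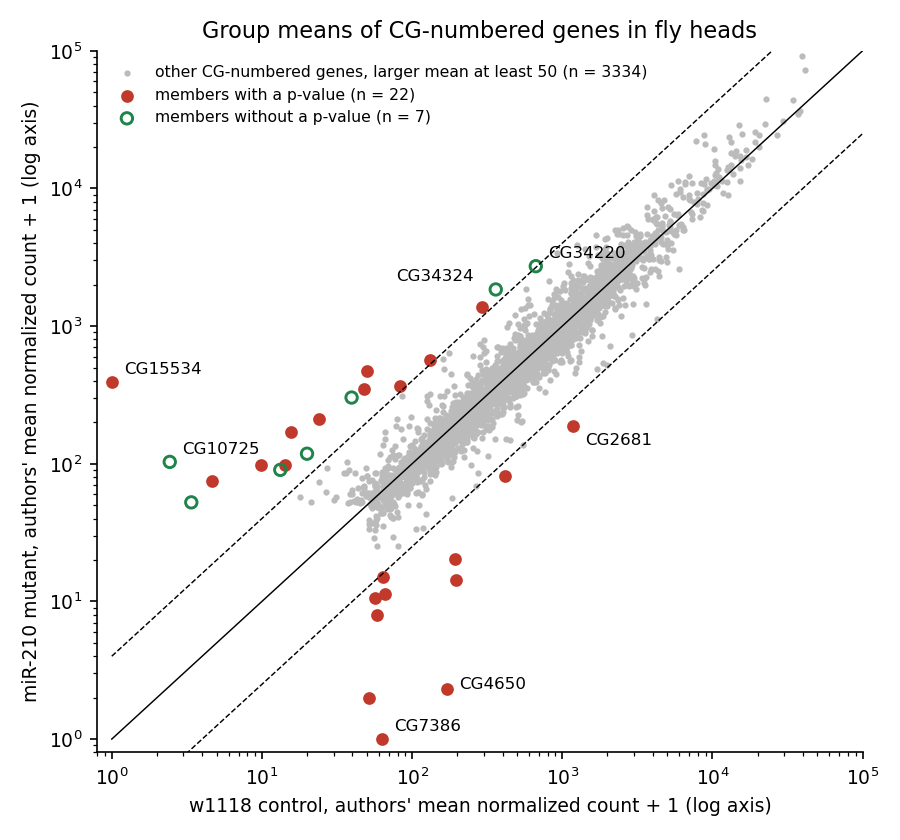
Authors' mean normalized count plus 1 in the w1118 control (horizontal, log axis) and in the miR-210 mutant (vertical, log axis) for each CG-numbered protein-coding gene with a larger mean of at least 50; the solid line marks equal means and the dashed lines a 4-fold difference. The 22 members with a p-value (filled red) and the 7 without (open green) lie outside the dashed lines by construction, with CG15534 at a control mean of 0 and CG7386 at a mutant mean of 0.

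Of the lower members, 3 were close to absent from mutant heads. CG7386 (3L from 6189745 to 6192049, plus strand, build dm6 as for all positions here) encodes a C2H2 zinc finger protein with a ZAD domain, from a large insect family of putative DNA-binding factors. It had 0 reads in every mutant library and 68.5, 47.4 and 69.7 normalized counts in the control libraries. Every control library thus held the transcript, and no mutant library did. Taking 3 reads over the group as the floor that a count of 0 allows, it was at least 51.0-fold lower in the mutant. The authors' deposited table gives it means of 0 and 61.9, a log2 fold change of -8.10 and an adjusted p of 1.73e-08.

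CG4650 (2L from 14773814 to 14774981, minus strand), a predicted serine protease with a trypsin domain, had normalized counts of 0, 2.42 and 1.49 in the mutant libraries against 143, 212 and 150.5 in the controls. The mutant values rest on 0, 2 and 1 reads, and the ratio of control to mutant, in summed reads over summed size factors, was 136 (exact 95% interval 46.2 to 659.8, counting error only). For this gene the authors' deposited table holds means of 1.30 and 169, a log2 fold change of -7.11 and an adjusted p of 8.82e-13. CG13280 (2L from 16802026 to 16821093, minus strand) carries the N-terminal oxidoreductase domain of the Gfo/Idh/MocA family, which includes sugar and inositol dehydrogenases. Its normalized counts were 0, 0 and 2.98 in the mutant libraries against 40.6, 45.6 and 64.8 in the controls. All of the mutant signal came from 2 reads of the shallowest library, and the same ratio was 59.8 (exact 95% interval 16.3 to 498, counting error only). Listed beside it in the authors' deposited table are means of 0.992 and 50.3, a log2 fold change of -5.93 and an adjusted p of 1.04e-05. Without that library the mutant had 0 reads.

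Within the span of CG13280, on the other strand, lies CG13272, which is no member because its larger mean was below 50. It had 1.03, 0 and 0 in the mutant libraries against 26.1, 47.4 and 41.8 in the controls, with 1 read in the mutant, and the authors' deposited table calls it lower (adjusted p = 4.46e-05). The second gene across this span, mdy, an acyltransferase gene of triacylglycerol synthesis, was not called, at authors' means of 1906 and 1178 and an adjusted p of 0.164 in the authors' deposited table. Both CG-numbered genes of the span were thus nearly absent from the mutant libraries, and mdy was not.

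The other lower members kept a measurable level in the mutant. CG10407, now Jhbp5 after the juvenile hormone-binding proteins (3R from 16044747 to 16046130, minus strand), had 16.4, 24.2 and 17.9 in the mutant libraries against 133, 224 and 222 in the controls. The groups were well apart, and the authors' deposited table reports means of 19.5 and 193, a log2 fold change of -3.31 and an adjusted p of 2.43e-14. Its exons overlap those of Jhbp4 on the other strand, which was not analysed here. As the counting is not stated to use strand, reads of the overlap cannot be assigned to either gene. CG11671, now Nazo, known in flies as an antiviral gene induced through Sting and IKKbeta (3R from 8287876 to 8288613, plus strand), had 16.4, 21.8 and 1.49 in the mutant libraries against 62.1, 462 and 62.8 in the controls. A single control library, the middle one, lay far above the rest. Without it the control mean went from 196 to 62.5 and the fold from 13.8 to 4.46. The groups did not overlap either way, and the authors' deposited table shows means of 13.2 and 196, a log2 fold change of -3.87 and an adjusted p of 0.00282.

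CG2681 (X from 2708684 to 2711668, plus strand) has Seven-in-absentia and TRAF-like domains, those of a family of ubiquitin ligases. Per kilobase of gene length it had the highest control level of the lower members that were called, at 514 normalized counts against 81.8 in the mutant. By library it had 109, 283 and 168 in the mutant libraries against 541, 1397 and 1586 in the controls. In each group the deepest library was the lowest, and the groups did not overlap. Its entry in the authors' deposited table has means of 187 and 1175, a log2 fold change of -2.65 and an adjusted p of 2.03e-05. CG4839 (2L from 10144776 to 10156407, plus strand), with a protein kinase domain, had 9.25, 1.21 and 10.4 in the mutant libraries against 84.8, 42.8 and 45.8 in the controls, at 9, 1 and 7 reads in the mutant. It is the lower member with the longest protein, at 1003 residues, and its exons overlap an annotated copy of the transposon blood on the other strand. The deposited values, from the authors' deposited table, are means of 6.96 and 57.8, a log2 fold change of -3.07 and an adjusted p of 2.33e-04.

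CG17109 and CG6733 are neighbours on 3R, 487 bases apart on the plus strand (23095690 to 23097240 and 23097728 to 23099191). Both encode peptidases of the M20 family, which includes aminoacylases, and both fell. CG17109 had 12.3, 7.26 and 8.93 in the mutant libraries against 38.3, 52.1 and 76.7 in the controls, and the authors' deposited table puts it at means of 9.51 and 55.7, a log2 fold change of -2.53 and an adjusted p of 9.50e-05. CG6733 had 22.6, 3.63 and 4.46 in the mutant libraries against 58.1, 68.8 and 68.7 in the controls, with its highest mutant value in the deepest library. Without the deepest mutant library its fold was 13.1 instead of 5.89, but this rests on only 3 reads in each of the remaining mutant libraries. The authors' deposited table puts CG6733 at means of 10.2 and 65.2, a log2 fold change of -2.62 and an adjusted p of 0.00367. The next gene of this cluster, CG6738, with the same domain and 341 bases further on, was hardly detected, with authors' means of 0.685 and 1.33. Of the 5 genes of this family in the table, 4 reached the level of 50. The other 2 of these, CG17337 and CG6465, had authors' means of 1265 and 415 for the mutant and 1365 and 415 for the control. The pair lies within the span of Cow, which runs on the other strand and was not called (log2 fold change -0.62, adjusted p = 0.559 in the authors' deposited table).

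CG15221 (X from 11724246 to 11736617, plus strand) encodes a transporter of the major facilitator superfamily and was the lower member closest to the 4-fold limit. Its libraries were tightly grouped, at 14.4, 15.7 and 11.9 in the mutant libraries against 62.1, 67.0 and 60.8 in the controls. The authors' deposited table carries means of 14.0 and 63.3, a log2 fold change of -2.17 and an adjusted p of 1.94e-06. Across its span lies, on the other strand, the inaF locus, whose product inaF-B is needed for the TRP channel of photoreceptors. In the authors' deposited table inaF-B fell from 1038 to 101 (adjusted p = 8.21e-09), and inaF-C fell from 42.1 to 0.343 (adjusted p = 3.60e-05), the latter on 1 mutant read. The genes inaF-A and inaF-D were tested and not called (adjusted p of 0.226 and 0.911 per the authors' deposited table). Exons of CG15221 do not overlap exons of these genes in the current annotation, but reads from unspliced RNA cannot be told apart.

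CG13428 (2R from 20539512 to 20540448, minus strand), a protein of 114 residues with no listed domain, is the member that was tested and not called. It had 133, 77.4 and 29.8 in the mutant libraries against 27.9, 577 and 638 in the controls, so that the groups overlapped. Between the deepest libraries the mutant was higher, and among the other 4 both mutant libraries were below both controls. It stands in the authors' deposited table with means of 79.9 and 414, a log2 fold change of -2.37 and an adjusted p of 0.153.

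**Figure D2:**
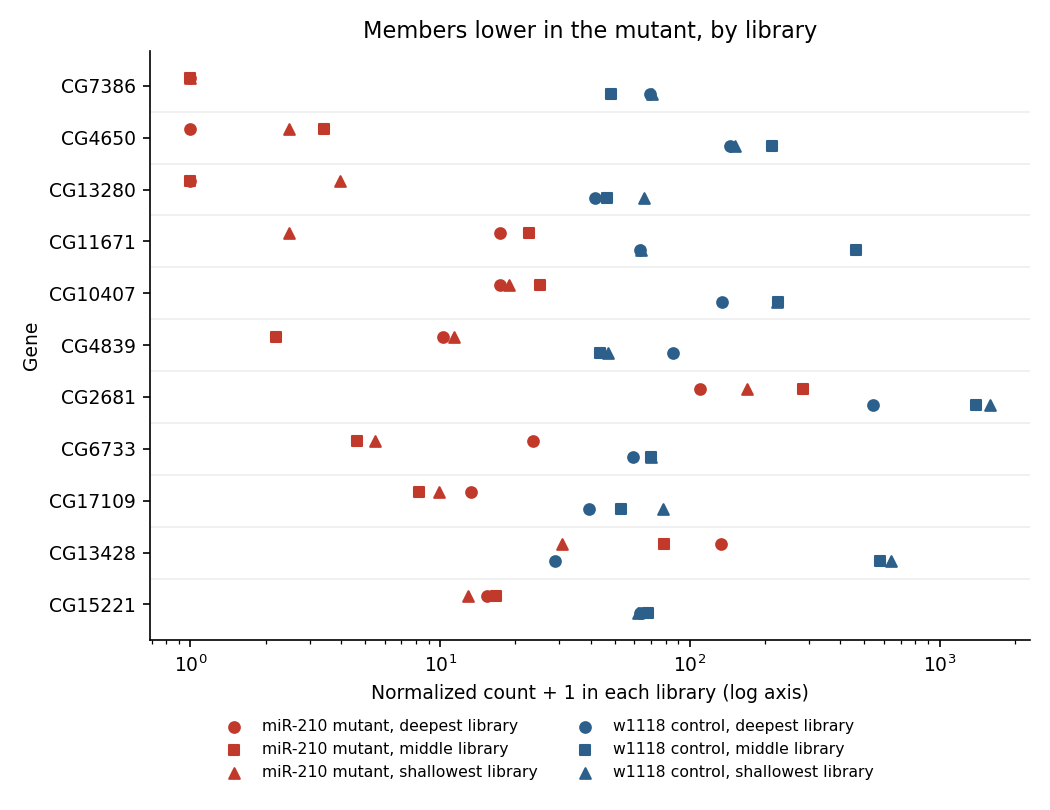
Normalized count plus 1 (horizontal, log axis) of the 11 members lower in the mutant, 1 gene per line, with red symbols for the 3 miR-210 mutant libraries and blue symbols for the 3 w1118 control libraries; the symbol shape gives the library. The colours are apart for 10 genes and overlap for CG13428, and CG7386, CG4650 and CG13280 sit at the left edge in the mutant.

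CG15534 was the member with the largest fold, present in every mutant library and at 0 reads in every control library. It encodes a calcineurin-like phosphoesterase of 666 residues (3R from 30432064 to 30435139, plus strand). The mutant libraries held 505, 344 and 317 normalized counts, from 491, 284 and 213 reads. With the same floor of 3 reads over the group, it was at least 492-fold higher in the mutant, and the authors' deposited table has means of 388 and 0, a log2 fold change of 11.34 and an adjusted p of 1.06e-17. Its neighbour CG15533, 701 bases away on the same strand and with the same domain, was also called higher, at a low level. It had 12.3, 3.63 and 4.46 in the mutant libraries and 0 in all controls (adjusted p = 0.0281 in the authors' deposited table). CG15537 on the other side, 37 bases away, had authors' means of 1067 and 848 and was not called (adjusted p = 0.445 in the authors' deposited table).

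CG33774 (2R from 9399753 to 9400329, minus strand), next by fold among the higher members that have a p-value, has a listed length of 310 bases and a predicted protein of 40 residues, the shortest of all members. It had 69.9, 56.9 and 96.7 in the mutant libraries against 1.16, 3.72 and 5.98 in the controls, with no overlap. The authors' deposited table assigns it means of 74.5 and 3.62, a log2 fold change of 4.48 and an adjusted p of 7.41e-11. Its exons overlap those of l(2)k10201 on the other strand, which had authors' means of 111 and 116, so the reads of the overlap are uncertain in origin.

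Enzymes that act on small molecules were among the higher members as well. CG5999, now Ugt37A3, is a UDP-glycosyltransferase, an enzyme class that attaches sugars to lipophilic compounds (3R from 12741958 to 12743680, minus strand). Its libraries were the most even of all higher members, at 174, 154 and 179 in the mutant libraries against 12.8, 14.9 and 15.9 in the controls. Per the authors' deposited table it rose by 3.55 on the log2 scale, with 14.5 as control mean, 169 as mutant mean and 1.41e-26 as adjusted p. Its neighbour of the same family 540 bases away, CG5724 (now Ugt37A2), was hardly detected, with authors' means of 2.18 and 0.194. CG6012 (2L from 16860029 to 16861489, minus strand), of the short-chain dehydrogenase family, had 53.4, 102 and 137 in the mutant libraries against 8.71, 12.1 and 5.98 in the controls. The groups did not overlap, and the gene rose by 3.44 on that scale per the authors' deposited table, from 8.93 to 97.3 (adjusted p = 1.14e-08).

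CG8249 (2R from 15842760 to 15847362, minus strand), a sugar transporter-like member of the major facilitator superfamily, had 517, 529 and 644 in the mutant libraries against 96.4, 138 and 157 in the controls. Its groups were compact and apart, and the authors' deposited table notes means of 563 and 130.5, a log2 fold change of 2.12 and an adjusted p of 3.02e-12. It stood just above the 4-fold limit and went under it, to 3.80, without the deepest control library. The serine protease gene CG30083 (2R from 15711597 to 15712644, minus strand) had 89.4, 85.9 and 118 in the mutant libraries against 7.55, 22.3 and 9.96 in the controls. It rose, and the authors' deposited table describes it by means of 97.6 and 13.3, a log2 fold change of 2.90 and an adjusted p of 1.99e-07. The trypsin family thus had a member in each direction, CG30083 higher and CG4650 lower. The nearest gene of the table to the left of CG30083, CG33462, 13586 bases away and also with a trypsin domain, had 0 reads in the mutant and 1.16, 27.0 and 113 in the controls, and was not called (adjusted p = 0.0541 in the authors' deposited table). With a control mean of 46.9 it missed the level of 50.

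The remaining 5 higher members with a p-value had no listed domain. CG34327 (X from 17222968 to 17223815, minus strand), a single-exon gene for a protein of 220 residues, had 494, 2191 and 1448 in the mutant libraries against 203, 237 and 433 in the controls. Per kilobase of gene length it had the highest mutant level among the members with a p-value, at 1625 normalized counts against 343 in the control, and the authors' deposited table marks it with means of 1378 and 291, a log2 fold change of 2.24 and an adjusted p of 0.00281. CG3699 (X from 946662 to 947500, minus strand), also of a single exon and with 251 residues, had 31.9, 151 and 451 in the mutant libraries against 2.90, 31.6 and 34.9 in the controls. Its values were spread widely, and the lowest mutant library lay below 1 control library. Without the shallowest mutant library its fold was 3.84 instead of 8.80, and the authors' deposited table records means of 211 and 23.1, a log2 fold change of 3.20 and an adjusted p of 0.0287. CG14257 (3R from 27075870 to 27082818, plus strand) had 306, 589 and 521 in the mutant libraries against 91.7, 33.5 and 21.9 in the controls, with its highest control value in the deepest library. Without the deepest control library its fold was 16.5 instead of 9.45, and the authors' deposited table enters means of 472 and 49.0, a log2 fold change of 3.25 and an adjusted p of 7.05e-07. The groups of CG34327 and CG14257 did not overlap.

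CG14329 (3R from 17609359 to 17610533, plus strand) had 326, 327 and 397 in the mutant libraries against 78.4, 37.2 and 25.9 in the controls. In CG4306 (3L from 18461957 to 18463163, minus strand) the values were 298, 318 and 489 in the mutant libraries against 66.2, 57.7 and 124 in the controls. Both genes had groups that were apart. The authors' deposited table contains means of 349.9 and 47.2, a log2 fold change of 2.87 and an adjusted p of 9.61e-09 for CG14329, and means of 369 and 82.5, a log2 fold change of 2.16 and an adjusted p of 5.28e-06 for CG4306. Edg91, which lies 322 bases from CG14329 on the other strand, also rose, from authors' means of 187 to 481 (adjusted p = 0.00399 in the authors' deposited table).

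**Figure D3:**
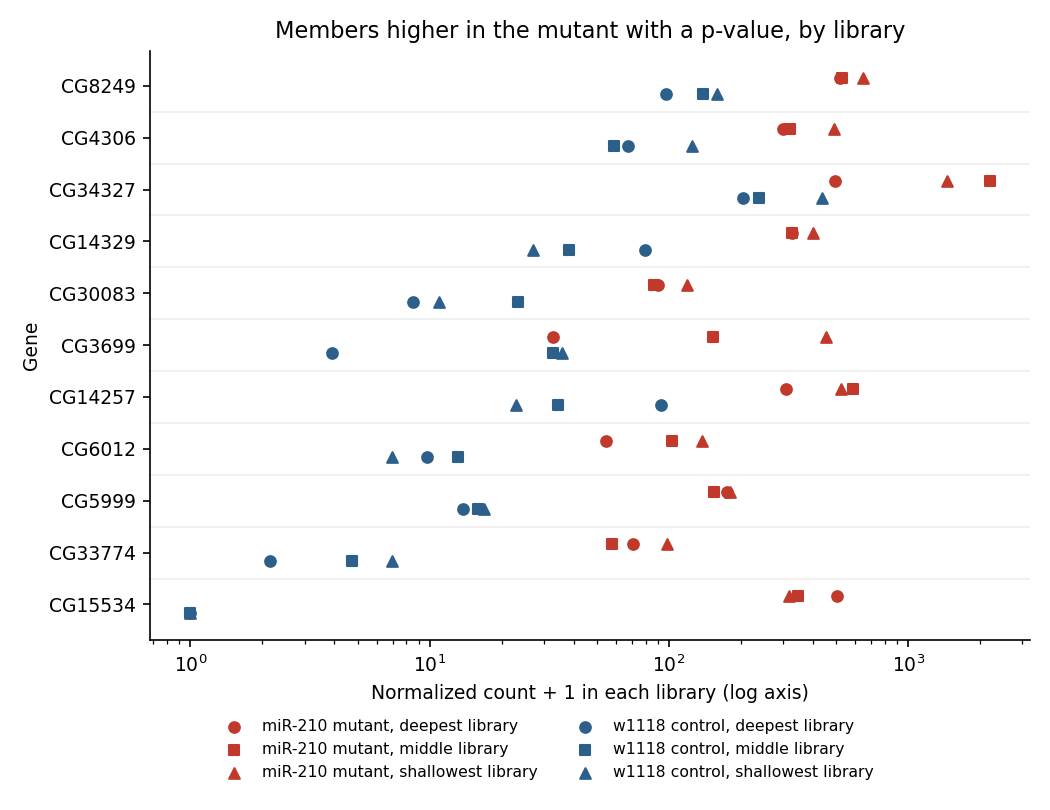
Normalized count plus 1 (horizontal, log axis) of the 11 members higher in the mutant that have a p-value, 1 gene per line, with red symbols for the 3 miR-210 mutant libraries and blue symbols for the 3 w1118 control libraries; the symbol shape gives the library. The colours are apart for 10 genes and overlap for CG3699, and CG15534 is at 0 in the 3 control libraries.

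The 7 other higher members rested on 1 mutant library, the shallowest, and all 7 are among the 23 genes of the table without a p-value (their adjusted value is listed as 1). Of these, CG34220, CG34324, CG43673 and CG10725 have a chitin-binding domain of the peritrophin type, which is known from proteins of the gut lining and of the cuticle. CG34220 (2R from 10041065 to 10043507, minus strand) had 30.8, 35.1 and 8101 in the mutant libraries against 50.5, 1904 and 41.8 in the controls. The shallowest mutant and the middle control library stood out, and the other 4 libraries lay between 30.8 and 50.5. CG34324 (X from 13456534 to 13457663, minus strand) had 5533 in the shallowest mutant library, 1079 in the middle control library and 0 reads in the other 4. CG43673 (X from 15779146 to 15780214, plus strand) had 2.06, 1.21 and 902 in the mutant libraries against 1.16, 113 and 0.996 in the controls. CG10725 (3L from 13437954 to 13439009, plus strand) had 0, 0 and 306 in the mutant libraries against 0.581, 3.72 and 0 in the controls. In these 4 genes the same 2 libraries were therefore the highest of their groups, the mutant one above the control one. The authors' deposited table lists log2 fold changes of 2.03, 2.36, 2.97 and 6.16 for them, from mutant means of 2722, 1844, 302 and 102 and control means of 665, 359.6, 38.5 and 1.43.

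The same held for the other 3. CG3819 and CG6839 lie 1170 bases apart on 3L, on opposite strands (18920430 to 18922108 and 18917581 to 18919259), and both encode DNA/RNA non-specific endonucleases, enzymes that degrade nucleic acids. CG3819 had 2.06, 2.42 and 263 in the mutant libraries against 4.06, 30.7 and 1.99 in the controls. CG6839 had 1.03, 0 and 153 in the mutant libraries against 0.581, 5.58 and 0.996 in the controls. Exons of CG6839 overlap those of CG18223 on the other strand, which was not analysed here. CG4783 (3R from 19948443 to 19948907, plus strand), a protein of 86 residues with no listed domain, had 4.11, 8.47 and 339 in the mutant libraries against 1.74, 51.2 and 3.99 in the controls. Log2 fold changes of 2.87, 4.44 and 2.63 stand for these 3 in the authors' deposited table, from mutant means of 89.3, 51.4 and 117 and control means of 12.2, 2.39 and 19.0. Across the 7 genes the shallowest mutant library held from 96.4% to 100% of the summed normalized counts of its group, and the middle control library from 78.0% to 100%. For the 21 members with a p-value and reads in the mutant, the highest mutant library held from 35.3% to 100%, the 100% being CG13280 with its 2 reads. In the control the highest library of the 22 members with a p-value held from 35.2% to 78.7%, the 78.7% being CG11671 in the middle control library.

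Without the shallowest mutant library the difference of all 7 genes turned, with lower means in the mutant than in the control. CG34220 then had a mutant mean of 33.0 against 665, and CG10725 had 0 against 1.43. Without both libraries that stood out, the log2 ratios of the 7 genes' means plus 1 ran from -0.47 (CG34220) to 0.92 (CG4783). The means over all 6 libraries chose the members, so agreement in direction is partly set by that choice. Without the shallowest mutant and the middle control library the 22 members with a p-value kept their direction. Their log2 ratios ran from 1.69 (CG4306) to 8.73 (CG15534) among the higher and from -6.13 (CG7386) to -1.65 (CG13428) among the lower ones. Among all 8354 recovered genes at the level of 50, 9 were at least 4 times higher in each of these 2 libraries than in both others of its group, on the count plus 1. Of these 9, 5 were members (CG34220, CG34324, CG43673, CG3819 and CG4783), 6 carry the chitin-binding domain, and all 9 lack a p-value in the authors' deposited table. The 4 that are no members were Muc68D, Cht8, CG14125 and CG3906. CG6839 and CG10725 were not counted here, with 5.58 and 3.72 normalized counts, or 6 and 4 reads, in the middle control library. Of all 62 genes of the chitin-binding family in the table, 29 reached the level of 50. In 7 of these 29 the shallowest mutant library was over 4 times the others of its group. It was the highest mutant library for 10 of the 29, and the middle control library was the highest control for 9. In the whole family 1 gene was called, ckd, and it fell, with authors' means of 51.6 and 116 (adjusted p = 4.61e-04 in the authors' deposited table).

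All 9 gut markers were in the table, and their sum lay between 825 and 2775 in mutant libraries and between 492 and 878 in the controls. The highest sum of each group was that of the shallowest mutant and of the middle control library. Most of the sum in the shallowest mutant library came from the amylase genes Amy-p and Amy-d, at 1393 and 1034. In that library the maltase gene Mal-A1 (144) and Npc2f (8.93) had their lowest value of the mutant group. The digestive protease genes alphaTry and betaTry had 95.2 and 37.2 in the shallowest mutant library, 0.581 each in the deepest control library and 0 in the other 4. The gut regulator lab had 44.2, 62.9 and 52.1 in the mutant libraries against 64.5, 47.4 and 59.8 in the controls, with no such peak. The part of gut and ovary RNA in the values of the 7 genes was not tested.

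**Figure D4:**
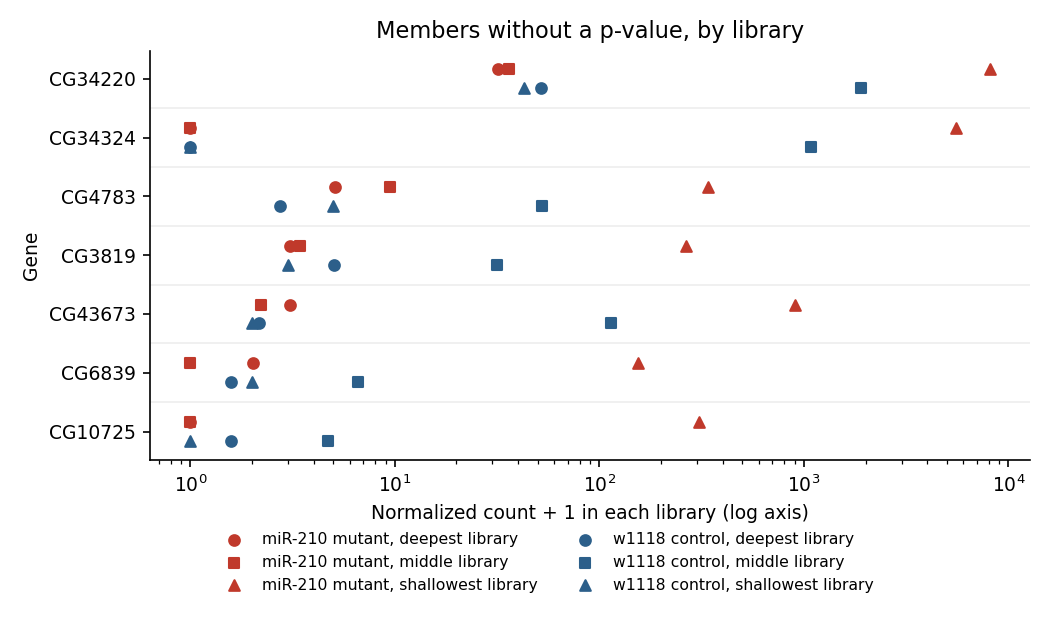
Normalized count plus 1 (horizontal, log axis) of the 7 members without a p-value, 1 gene per line, with red symbols for the 3 miR-210 mutant libraries and blue symbols for the 3 w1118 control libraries; the symbol shape gives the library and symbols at the same value overlie. In all 7 genes the shallowest mutant library (red triangle) is the highest of the 6 and the middle control library (blue square) the next.

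The 22 members with a p-value were also compared within the kinds of library. The means over these same libraries chose the members, so agreement in direction is largely set by the choice. Nothing is read from it. Between the deepest libraries alone 21 of the 22 had the direction of their means, the exception being CG13428, and 16 of the 21 differed at least 4-fold. In the other 4 libraries all 22 had it, and 21 differed at least 4-fold. CG8249, with a log2 ratio of 1.98 there, was the one that did not. The ratio of CG14257 was 1.73 between the deepest libraries and 4.28 in the others, and that of CG11671 -1.86 and -4.38. CG13428 turned from 2.21 to -3.48. The median SD of log2(normalized count + 1) over 3 libraries was 0.44 in the mutant and 0.51 in the control for these 22 genes, and 4.56 and 2.25 for the 7 without a p-value. Why those 7 genes lack a p-value is not stated, so this difference in spread may follow from the split itself.

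When 1 library at a time was left out, 17 members stayed at or above 4-fold in each of the 6 cases, 10 of them lower and 7 higher in the mutant. Another 5 with a p-value went under it without turning direction. These were CG13428, CG34327, CG3699, CG4306 and CG8249, with lowest folds of 3.75, 3.33, 3.84, 3.70 and 3.80. The other 7 are the genes without a p-value. As all 6 libraries went into the choice of the members, these counts describe how much a fold rests on 1 library and are no test.

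**Figure D5:**
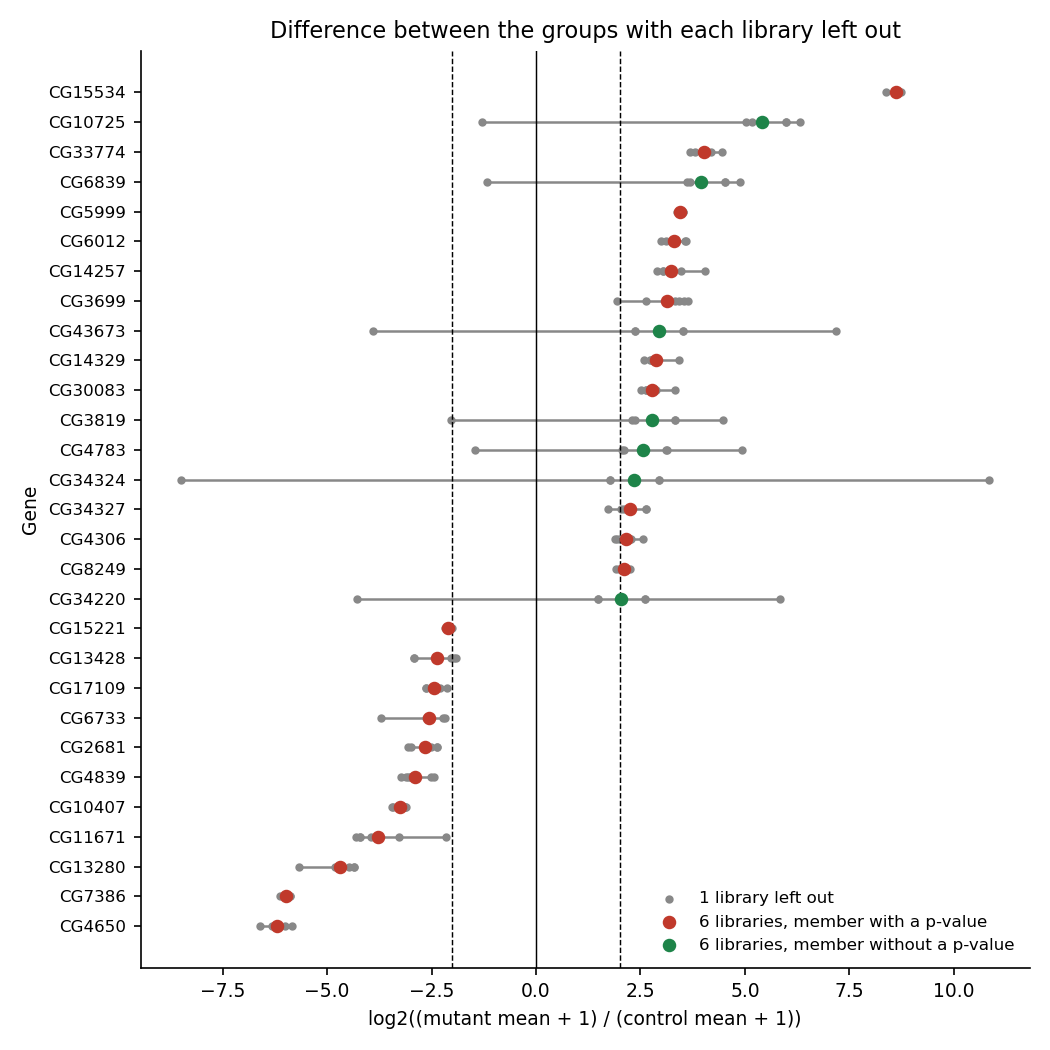
log2 ratio of the mutant to the control mean, each plus 1, for the 29 members over the 6 libraries (large points, red with and green without a p-value) and with each library left out in turn (small grey points joined by a line); dashed lines mark a 4-fold difference. The 7 green genes reach across 0, and the 22 red genes stay on their own side of it.

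The limma test on the recovered libraries, used only as another way of calling, called 9 of the 18 higher and 6 of the 11 lower members, where 0.431% and 0.561% of 11596 genes were called. The called members it left out were CG34327 (adjusted p = 0.211) and CG3699 (0.409) among the higher ones. Among the lower ones they were CG11671 (0.254), CG4839 (0.126), CG2681 (0.0874) and CG6733 (0.114). When the limma model had a term for both deepest libraries, 11 and 9 members were called, where 7.05% and 8.94% of all genes were, and of the members called by the authors only CG11671 was then not called. The counts stayed at 9 and 6 with no filter on low means (0.349% and 0.463% of all genes), with a pseudocount of 0.5 (0.362% and 0.5%) and with libraries scaled to equal totals (0.397% and 0.544%). Without the shallowest mutant and the middle control library limma called 1 higher and 0 lower members, where 0.0172% and 0.00861% of all genes were called. At an unadjusted p under 0.05 that fit held 9 higher and 10 lower members, where 2.19% and 2.56% of all genes passed. These shares are printed for scale, and nothing is read from the members' counts, since the contrast chose the members.

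At the limit of the choice, CG34220 (4.09-fold), CG15221 (4.28-fold) and CG8249 (4.29-fold) were just inside, and CG4660 (3.98-fold), CG44195 (3.81-fold) and CG45782 (3.80-fold) were just outside. These 3 were lower in the mutant. CG45782 had 426, 569 and 567 in the mutant libraries against 2091, 2023 and 1837 in the controls. CG4660 had 145, 139 and 125 in the mutant libraries against 735, 434 and 469 in the controls. The groups of both were apart, and the authors' deposited table calls them, with adjusted p of 3.67e-18 and 4.23e-09, with log2 fold changes of -1.93 and -2.002 and means of 521 against 1984 and 136 against 546. CG44195, which has no p-value in that table, had 146, 38.7 and 20.8 in the mutant libraries against 675, 55.8 and 59.8 in the controls. Its groups overlapped, and the deepest library of each group was far above the others, at a log2 fold change of -1.94 and means of 68.5 and 263 in the authors' deposited table.

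The members were spread over the genome, with 4 on 2L, 5 on 2R, 5 on 3L, 9 on 3R, 6 on X and 0 on chromosome 4. Their shares on the first 5 of these (13.8%, 17.2%, 17.2%, 31.0% and 20.7%) lay beside 18.0%, 19.1%, 19.1%, 25.7% and 17.5% of all CG-numbered genes at the same level. The M20 peptidase pair and the endonuclease pair were the only members within 20 kb of each other. CG6012 and CG13280 on 2L were 38935 bases apart and went in opposite directions. The nearest genes of the table on either side of the members made up 54 other genes, of which 42 were tested and 3 called, where 4.46% of all tested genes were called in either direction. These were Edg91, CG15533 and CR31781, a noncoding RNA near CG6012, which fell from authors' means of 2109.9 to 966 (adjusted p = 8.84e-04 in the authors' deposited table). None of the 54 met the level and fold used here. Another 13 genes of the table overlap the span of a member, all tested, of which CG13272, inaF-B and inaF-C were called and inaF-B met the level and fold. Jhbp4, CG18223 and the blood copy, whose exon overlaps come from the current annotation, are not counted among them.

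The member genes were short, with a median length of 1125 bases in the table, against 1866 for all CG-numbered genes that passed the same minimum level. They also had lower levels, with median larger means of 256 for the higher and 65.2 for the lower members, against 540 for those genes. The part of level in the difference in length was not tested. The median length was 1038 bases for the higher and 1373 for the lower members. In the current annotation their longest proteins ran from 40 residues (CG33774) to 726 (CG34220) among the higher members, with a median of 290. Those of the lower members ran from 114 (CG13428) to 1003 (CG4839), with a median of 401.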

How the data were processed

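RNA from adult heads of 3 miR-210 mutant and 3 w1118 samples was extracted with Trizol and sequenced on an Illumina platform, per the labels' protocols. The submitters' processing notes name FastQC, HISAT2, featureCounts, DESeq and the build dm6, with no version and no role. The 1 deposited table gives, per the file headers, a mean signal per group, which by its values is the authors' average of read counts divided by size factors. The log2 fold changes (mutant over control) and the p-values and adjusted p-values are also the authors' own, as deposited. Over 11155 genes the adjusted values equal those of a Benjamini-Hochberg adjustment (largest gap 3.85e-15), and the other 2386 genes are listed at 1.

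The test planned for counts per sample was replaced by the authors' calls, since the table holds group means. Reads per library were recovered from these means (Python 3.11.15, numpy 2.4.6, pandas 2.3.3, numba 0.67.0): each mean of at most 10000 was searched for the whole numbers of reads that give it, and 1 combination was found for each of 13193 mutant and 13225 control means. The search and the limma test were tested on simulated data. The reads simulated for limma had the same spread setting for all genes and no deepest library that stood apart. That check therefore cannot show how limma performs on these libraries. Alternatives used limma 3.58.1 (R 4.3.3, trend and robust) on log2(normalized count + 1) of recovered genes with a mean of at least 1, a scale that understates the change of low genes. Strand use in counting is not given in the sources used here. As nothing says that samples came from separate flies, p-values reflect only how these samples vary, possibly for technical reasons. Positions are the table's, and equal those of the current annotation for 13234 of 13318 matched genes.

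Every member is named. Library values, means, log2 fold change and adjusted p are given for the 10 members of largest fold in each direction, for close pairs and for those near the limit, overlapping, uncalled or under 4-fold without 1 library. The members, marker lists and alternatives were chosen with earlier results of these data known. No reference sequences were used here.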

Additional observations from a re-analysis of the deposited data

How the results depend on the processing

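With a larger mean of at least 20 the numbers of genes meeting the rule went from 18 to 29 (higher) and from 11 to 19 (lower). Among lower genes, the other counts that moved were 24 at a fold of 3, 7 at a fold of 6, 5 at a larger mean of at least 100 and 7 with a pseudocount of 10. Genes with a p-value alone gave 11 higher ones, a choice made after the data were seen. Leaving out 1 library at a time gave 9 to 28 higher and 11 to 18 lower genes, the 9 without the shallowest mutant library. Numbers of called members with limma in place of the authors' test were 9 and 6, and 6 for lower ones also with no filter on low means, with a pseudocount of 0.5 and with equal totals. With limma and 1 library left out they were 2 to 6 (higher) and 2 to 5 (lower), where 0.0687% to 0.244% and 0.112% to 0.409% of all genes were called. Without the shallowest mutant and the middle control library, chosen after the data were seen, they were 1 and 0. These fits hold fewer samples, and no other cause was tested. In log2 of the means plus 1, the 7 members that turned did so without the shallowest mutant library, and the range over the 6 libraries left out was -4.29 to 5.85 for CG34220, -8.49 to 10.85 for CG34324, -1.45 to 4.94 for CG4783, -2.03 to 4.49 for CG3819, -3.91 to 7.19 for CG43673, -1.16 to 4.87 for CG6839 and -1.28 to 6.32 for CG10725. The other 167 values from leaving out 1 library kept their direction. No paired analysis was possible because the recovered libraries carry no replicate number. Counts of 0 to 9 reads in every mutant library limit what the mutant values of CG7386, CG4650, CG13280 and CG4839 can show. Of the other lower members, CG6733, CG17109, CG11671 and CG15221 also had mutant libraries with few reads, at lowest 3, 6, 1 and 8. The largest means, over 10000, were not split into libraries.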
